A study of Mus musculus with 5 samples.

Results

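The 10 Notch pathway genes described here were followed in single cells of dorsal skin from mice, by sequencing of their RNA. They are the receptors Notch1, Notch2 and Notch3, the ligands Jag1, Jag2 and Dll1, and the target genes Hes1, Hey1, Heyl and Nrarp. The 10 genes were chosen by name, and all 10 were found among the 28001 features of the matrices. Cells of whole dorsal skin were taken without sorting from females at postnatal day 46, in 4 libraries. The 2 control libraries came from Lepr-Cre;mTmG mice and the 2 mutant libraries from mice labelled Lepr-Cre;mTmG;Smo+/-. All of them carried Lepr-Cre, a recombinase driven from the leptin receptor locus, and mTmG, a reporter that replaces a red membrane protein with a green one in cells where Cre was active. Smo encodes the signal transducer of the Hedgehog pathway. The labels do not say how its allele was changed, and the protocol text writes the control with Smo after the reporter. According to the protocols, the libraries within each genotype are technical replicates (n = 2). A p-value here can at most measure the spread between preparations, and not that between animals.

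Notch receptors are cut when a ligand on a neighbouring cell binds them, and the released intracellular part joins the DNA-binding protein RBPJ to switch on target genes. HES and HEY proteins are transcriptional repressors of the basic helix-loop-helix family, and NRARP limits Notch signalling by acting on the intracellular part. In skin the pathway is known for the differentiation of keratinocytes, for hair follicle upkeep and for the mural cells of small vessels, where NOTCH3 is a classical receptor.

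The 4 unsorted matrices held 147245343 to 171197845 UMIs, and 8102 to 8673 cells per library were kept. Each cell was assigned to a group from its markers and those of its nearest neighbours, and 8654 of 33400 cells stayed without a group. A gated group is named from markers such as Corin and Crabp1 (dermal papilla, the signalling mesenchyme of the hair follicle), Col1a1 and Pi16 (fibroblasts) or Rgs5 and Kcnj8 (pericytes and vascular smooth muscle). Levels were read in 14 groups, of which 13 had at least 20 cells in every library and could be compared by genotype. The bulge-gated keratinocytes had only 14, 18, 15 and 22 cells. Levels are CPM, the share of a group's UMIs in a library that a gene holds, in counts per 1000000. Log2 differences below come from fits that rescale the sums (TMM), so their size can differ from a ratio of CPM. The reads tag 3′ ends, so CPM carry no correction for length, and levels were compared between groups and not between genes. In each sentence the values run control 1, control 2, mutant 1, mutant 2. Smo itself stood at 32.7, 35.6, 41.1 and 40.4 CPM in papilla-gated cells, and a 3′ tag does not show a change elsewhere in the gene. The Hedgehog target Ptch1 stood at 42.5, 52.4, 218 and 231 CPM in the same cells.

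The make-up of the libraries touches the results below. Clusters 15 and 23 were held almost wholly by mutant libraries: cluster 15 had 1, 4, 426 and 457 cells and supplied 0, 2, 351 and 374 of the 344, 378, 1085 and 1088 papilla-gated cells. Cluster 23 had 2, 0, 278 and 242 cells and supplied 0, 0, 83 and 66 of the 515, 473, 688 and 717 fibroblast-gated cells. Cluster 32, with 3, 6, 89 and 67 cells, all gated as basal keratinocytes, was also mostly mutant, but it lay under the 95% of cells from 1 genotype at which clusters 15 and 23 were left out as an alternative. Pairs of unsorted libraries shared 117 to 192 cell barcodes, and 489 kept cells carried a barcode seen in another library.

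Among the receptors, Notch3 was highest in the mural cells of vessels. Notch3 (chromosome 17, 32120820 to 32166852, minus strand, GRCm38) stood at 258, 318, 230.2 and 249.7 CPM in pericyte-gated cells. The next group in both genotypes was the upper follicle keratinocytes, at 49.2, 44.0, 46.9 and 42.4 CPM, so the 2 groups did not overlap in any library. Papilla-gated cells followed at 23.7, 28.1, 21.4 and 24.8 CPM, a range that overlapped with those of blood endothelial, bulge-gated and suprabasal cells. Fibroblast-gated cells held 3.97, 4.69, 6.32 and 5.56 CPM, and mast-gated cells held no UMI. With every cell thinned to 2000 UMIs, 39.5%, 40.9%, 40% and 38.0% of pericyte-gated cells had a Notch3 UMI, against at most 2.33% of lymphatic endothelial cells, a group with 10 Notch3 UMIs in all. Thinning kept 38, 44, 50 and 50 of the 43, 48, 60 and 64 pericyte-gated cells. Without thinning the shares were 58.1%, 66.7%, 51.7% and 46.9% against at most 2.80%, at median depths of 3273 to 4220 and 3243 to 4489 UMIs.

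Notch1 (chromosome 2, 26457903 to 26516663, minus strand) was widespread. It was highest in blood endothelial cells, at 432, 436, 409 and 290.3 CPM, and mast-gated cells followed at 306, 327, 295 and 328 CPM. These neighbours did not overlap in control libraries and overlapped in mutant ones. Bulge-gated keratinocytes, at 244, 259.5, 265 and 253 CPM, and lymphatic endothelial cells, at 210.4, 235, 193 and 192 CPM, came next. Papilla-gated cells held 104, 111, 124 and 121 CPM, while fibroblast-gated cells held 33.0, 31.8, 31.8 and 31.0 CPM. Langerhans cells were lowest, between 8.16 and 21.3 CPM.

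Notch2 (chromosome 3, 98013527 to 98150361, plus strand) varied less between groups. Its highest level was in the few mast-gated cells, at 127, 159, 107 and 58.9 CPM from 48 UMIs in all. Suprabasal keratinocytes, the differentiating layers of the epidermis, held 67.3, 65.0, 70.1 and 63.2 CPM, and upper follicle keratinocytes overlapped with them at 65.7, 59.4, 60.5 and 65.7 CPM. Basal keratinocytes, at 21.8, 23.5, 24.3 and 21.5 CPM, lay well below both. Blood endothelial cells, the group highest for Notch1, were lowest for Notch2, between 8.20 and 12.6 CPM.

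The ligand Dll1 (chromosome 17, 15367354 to 15376872, minus strand) marked papilla-gated cells, at 336, 321, 234 and 217 CPM. Every library of that group lay above every library of any other group. The next levels in control libraries were those of lymphatic endothelial cells, 64.9 and 37.1 CPM, and basal keratinocytes, 48.8 and 50.2 CPM, which overlapped. Fibroblast-gated cells held 12.5, 8.98, 10.3 and 10.2 CPM. Bulge-gated keratinocytes held 4 UMIs in all 4 libraries. After thinning, 37.2%, 36.6%, 27.7% and 28.9% of papilla-gated cells had a Dll1 UMI, against 1.78%, 2.16%, 2.54% and 2.00% of fibroblast-gated cells. This used 320, 347, 1049 and 1043 papilla-gated and 505, 464, 668 and 701 fibroblast-gated cells. Unthinned shares were 65.7%, 66.7%, 50.3% and 51.7% against 6.80%, 7.61%, 9.45% and 9.90%, although fibroblast-gated cells were deeper, with median depths of 9160 to 11363 UMIs against 6016 to 7399.

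The ligand Jag1 (chromosome 2, 137081456 to 137116644, minus strand) was highest in blood endothelial cells, at 118, 115, 152 and 107 CPM. Bulge-gated, upper follicle and pericyte-gated cells overlapped below that, and basal keratinocytes held 70.9, 73.1, 63.1 and 55.8 CPM. Jag2 (chromosome 12, 112907819 to 112929776, minus strand) was a low gene in most groups. It stood at 17.3, 18.4, 16.4 and 15.8 CPM in basal keratinocytes, with 4268 UMIs, and at 23.2, 17.1, 15 and 16 CPM in blood endothelial cells, which overlapped with them. Suprabasal keratinocytes held 1.02, 0.960, 1.16 and 1.34 CPM of Jag2.

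Of the target genes, Hes1 (chromosome 16, 30064384 to 30067796, plus strand) was found in every group. Lymphatic endothelial cells held 956, 867, 697 and 660.2 CPM and bulge-gated keratinocytes 439, 468, 1145 and 778 CPM, so the leading group differed between control and mutant libraries. Fibroblast-gated cells stood at 355, 362, 352 and 343 CPM and papilla-gated cells at 226, 306, 286 and 266 CPM, without overlap. T, NK or innate lymphoid cells held 11.6, 6.07, 13.8 and 16 CPM. Hey1 (chromosome 3, 8663359 to 8667256, minus strand) was highest in endothelium, at 23.2, 66.8, 35.5 and 21.7 CPM in blood endothelial and 31.5, 28.3, 28.7 and 18.8 CPM in lymphatic endothelial cells, which overlapped.

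Heyl (chromosome 4, 123233556 to 123249875, plus strand) was the sparsest member. It stood at 21.0, 23.4, 7.42 and 13.1 CPM in pericyte-gated cells, from 14 UMIs in all, at 7.75, 3.06, 4.09 and 4.84 CPM in fibroblast-gated cells, and at 1.03, 1.79, 4.22 and 4.26 CPM in papilla-gated cells. No UMI of Heyl was seen in lymphatic endothelial, melanocyte, Langerhans, mast, upper follicle or bulge-gated cells. Nrarp (chromosome 2, 25180758 to 25183339, plus strand) was also highest in pericyte-gated cells. It stood at 158, 149.7, 215 and 237 CPM in pericyte-gated cells, then at 44.5, 51.2, 76.5 and 61.7 CPM in blood endothelial cells, without overlap. Upper follicle keratinocytes, at 27.8, 31.2, 25.5 and 25.6 CPM, and T, NK or innate lymphoid cells, at 26.8, 24.3, 17.3 and 17.8 CPM, followed.

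**Figure D1:**
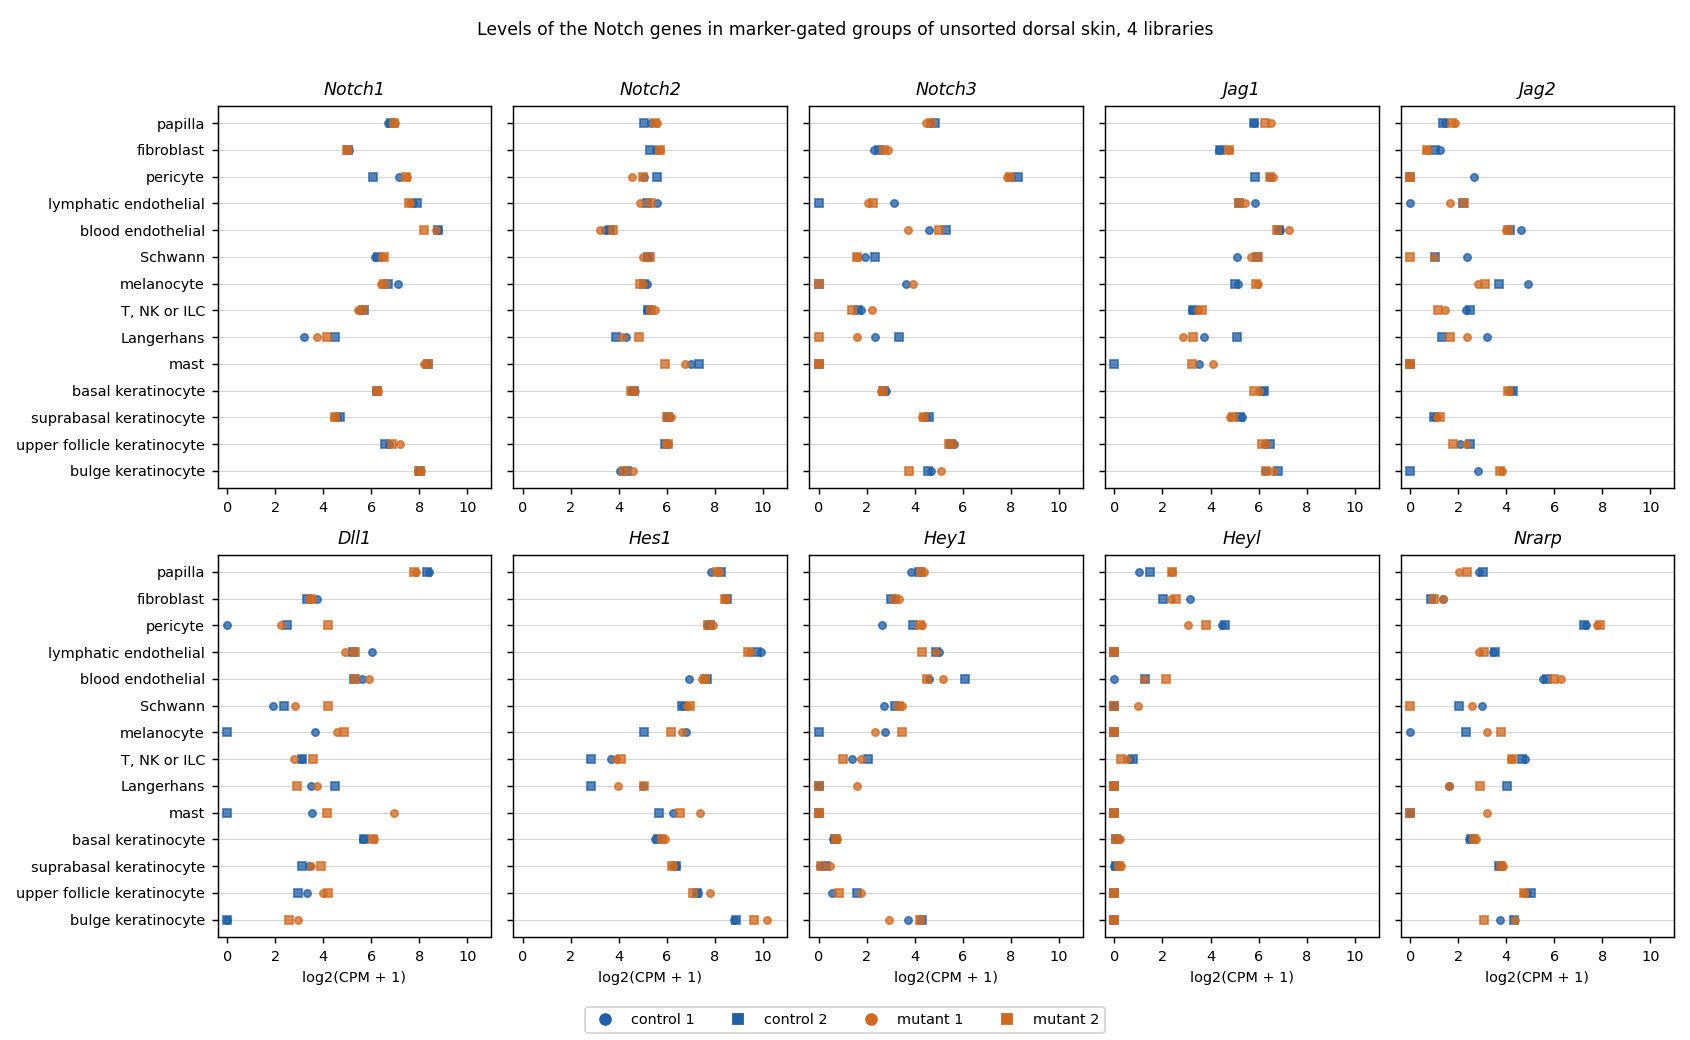
Levels of the 10 Notch genes as log2(CPM + 1) on the horizontal axis in 14 marker-gated groups, with 1 point per library (blue control, orange mutant, circles library 1, squares library 2). Notch3 and Nrarp stand apart in pericyte-gated cells and Dll1 in papilla-gated cells, while Hes1 is spread over all groups.

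The genes whose group means followed each member most closely were named by Pearson's r of log2(mean CPM + 1) over 13 groups, as a description with no test, since all groups share the same 4 libraries and differ in depth. For Notch3 they were Tpm2 (r = 0.85), Baz2a (r = 0.84) and Tnfrsf1a (r = 0.84). For Nrarp they were Daxx (r = 0.89), Gja4 (r = 0.79) and Notch3 itself (r = 0.78), the only member among another member's 3 closest genes. Jag2 was followed by Itga3 (r = 0.94), Bcam (r = 0.85) and Lama3 (r = 0.84), of which Itga3 and Lama3 encode parts of the basal keratinocyte's anchorage to the basement membrane. Dll1 was followed by Wipi2 (r = 0.79), Zfp622 (r = 0.76) and Bmp4 (r = 0.74), all 3 highest in papilla-gated cells.
The closest genes of Notch1 were Hk1 (r = 0.92), Brwd1 (r = 0.85) and Hipk1 (r = 0.84), and those of Notch2 included Spast (r = 0.87) and Bcap31 (r = 0.81). Jag1 was followed by Ccdc86 (r = 0.96), Apex1 (r = 0.94) and Sbno2 (r = 0.93). Hes1 was followed by Cdc42ep5 (r = 0.91), Wsb1 (r = 0.90) and Lamp2 (r = 0.89). Hey1 was followed by Msantd2 (r = 0.95), Cxx1a (r = 0.94) and Tcirg1 (r = 0.94), and Heyl by Cygb (r = 0.95), Speg (r = 0.95) and Tbx15 (r = 0.94).

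In the direct comparison of pericyte-gated with fibroblast-gated cells, the receptor Notch3 and the target Nrarp were higher by the widest margins among the members. Sums per library were compared with edgeR's quasi-likelihood test with the library as a block, and calls required at least a 2-fold change and an adjusted p (Benjamini-Hochberg) under 0.05. Nrarp was higher by 7.19 ± 0.301 on the log2 scale (SE, adjusted p = 4.79e-17) and Notch3 by 5.59 ± 0.215 (adjusted p = 7.14e-18). Notch1 was higher by 2.08 ± 0.220, Jag1 by 1.77 ± 0.247 and Heyl by 1.65 ± 0.537 (adjusted p = 1.21e-08, 1.45e-06 and 0.0154). Thus 5 of 9 tested members were called, all higher, where 29.8% of all 10260 genes were called, 10.6% higher and 19.2% lower. The Heyl call rested on 14 pericyte UMIs and was lost without control replicate 1 (adjusted p = 0.0554) or control replicate 2 (adjusted p = 0.135) and in the control libraries alone (adjusted p = 0.0505). The Jag1 call was lost when groups were taken from Leiden clusters (0.86, under the fold minimum). Hes1, a target present in both groups, was lower by 0.76 ± 0.136 on the log2 scale and missed the fold minimum, and with each cell gated on its own markers alone the difference was −0.09 (adjusted p = 0.704). The fibroblast marker list summed to 1470, 2570, 2280 and 1110 CPM in pericyte-gated cells, and its part in these values was not tested.

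The transcription starts of 2 of these genes, Notch3 and Nrarp, and of a further HEY gene, Hey2, are shown as examples. They come from the genes called higher in pericyte-gated than in fibroblast-gated cells. Notch1, Jag1 and Heyl were also called higher there and are not printed. The Hey2 call was lost in 5 of 13 alternatives. The 250 bases before each RefSeq start (GRCm38.p6) are printed 5′ to 3′ on the gene's strand, with the hexamer TGGGAA, the core of the RBPJ site, or its reverse complement TTCCCA in capitals. Notch3 lies on the minus strand at chr17:32166891-32167140, Nrarp on the plus strand at chr2:25180508-25180757 and Hey2 on the minus strand at chr10:30842784-30843033.
Notch3: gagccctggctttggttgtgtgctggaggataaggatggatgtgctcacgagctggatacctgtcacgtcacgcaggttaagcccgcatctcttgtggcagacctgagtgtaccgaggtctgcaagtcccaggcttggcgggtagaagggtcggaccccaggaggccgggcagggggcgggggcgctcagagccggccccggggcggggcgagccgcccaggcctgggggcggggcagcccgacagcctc
Nrarp: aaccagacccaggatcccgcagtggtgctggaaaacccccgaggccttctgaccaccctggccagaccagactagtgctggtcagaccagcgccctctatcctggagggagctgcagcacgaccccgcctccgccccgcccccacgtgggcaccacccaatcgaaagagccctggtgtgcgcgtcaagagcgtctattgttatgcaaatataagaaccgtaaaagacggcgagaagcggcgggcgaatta
Hey2: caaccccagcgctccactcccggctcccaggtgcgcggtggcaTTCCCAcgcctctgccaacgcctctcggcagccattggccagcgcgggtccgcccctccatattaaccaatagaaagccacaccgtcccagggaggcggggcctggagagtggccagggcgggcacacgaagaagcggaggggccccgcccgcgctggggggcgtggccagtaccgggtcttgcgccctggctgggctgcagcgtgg
The hexamer was found once in the Hey2 window, 207 bases before the start on the opposite strand, and in neither of the other windows. Of the 7 members with such a window, none held it, and of 39 other pathway genes 12 did, where 24.1% of all 27025 genes with such a window held it in at least 1. The target genes Hes1, Hey1 and Heyl had no window and were not searched, so Nrarp was the only target among the 7. Counted by window, 21.6% of all 32851 held it. These are matches of letters in a short window and show nothing about binding.

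In papilla-gated against fibroblast-gated cells, all 3 kinds of gene were represented among the members that were higher. Dll1 was higher by 4.32 ± 0.130 on the log2 scale (SE, edgeR adjusted p = 4.94e-07), which the levels above show in all 4 libraries. Notch3 was higher by 1.85 ± 0.163 and Notch1 by 1.49 ± 0.0826, and Nrarp, at 6.19, 7.16, 3.11 and 4.16 CPM against 1.59, 0.816, 1.61 and 0.968 CPM, was higher by 1.56 ± 0.334 (adjusted p = 4.35e-05, 4.85e-06 and 0.00412). Jag1 was higher by 1.21 ± 0.0869 (adjusted p = 1.49e-05), and this call was lost when groups were taken from Leiden clusters (log2 difference 0.38, adjusted p = 0.049). With these, 5 of 10 members were called, all higher, where 29.6% of 12737 genes were called, 13.1% higher and 16.6% lower. Hes1 (−0.75 ± 0.0838) and Notch2 (−0.56 ± 0.0741) were lower at an adjusted p of 0.000141 and 0.000353 without reaching 2-fold. The fold for Heyl was −1.06 ± 0.413 with an adjusted p of 0.0514.

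Basal and suprabasal keratinocytes differed in their levels of receptors and ligands. Jag2 was higher in basal cells by 3.67 ± 0.106 on the log2 scale, Dll1 by 2.22 ± 0.0790 and Notch1 by 1.45 ± 0.0576 (SE, edgeR adjusted p = 1.1e-09, 4.96e-09 and 1.1e-08). In the opposite direction, the basal minus suprabasal log2 difference was −2.20 ± 0.0616 for Notch3, −1.83 ± 0.0408 for Notch2 and −1.59 ± 0.0663 for Nrarp (adjusted p = 9.11e-10, 1.87e-10 and 1.56e-08). Nrarp stood at 4.52, 4.86, 5.63 and 5.37 CPM in basal and 11.9, 12, 13.5 and 12.7 CPM in suprabasal cells, and Notch3 at 6.05, 5.68, 5.10 and 5.35 CPM against 21.4, 23.4, 18.5 and 20.1 CPM. No library overlapped between the layers for these genes. Hey1 was called higher in basal cells (1.48 ± 0.426, adjusted p = 0.0105), but at under 1 CPM in every library of both layers. In all, 4 members were called higher and 3 lower in basal cells of 9 tested, where 30.3% of 14016 genes were called, 18.8% higher and 11.5% lower. Hes1 was lower in basal cells by −0.89 ± 0.0853, and the difference passed the fold minimum in the control libraries taken alone (−1.09). Jag1 was higher in basal cells without reaching 2-fold, with a log2 difference of 0.66 to 0.78 under 13 alternatives. Sums of the suprabasal marker list in basal-gated cells were 5000 to 5720 CPM, so the layers are not fully separated.

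Bulge-gated keratinocytes, cells with markers of the follicle's stem cell region, differed from basal keratinocytes chiefly in Dll1, Hes1 and Hey1. Their basal marker list summed to 18700 to 20600 CPM, above the 13600 to 14700 CPM of basal-gated cells, and their bulge list to 3180 to 4510 CPM against 315 to 365 CPM. The suprabasal list, at 10200, 9900, 9600 and 8910 CPM, was also above the 5720, 5640, 5000 and 5000 CPM of basal-gated cells, and its part in the values below was not tested. Hes1, at 439, 468, 1145 and 778 CPM against 44.5, 48.9, 59.7 and 54.5 CPM, was higher by 3.17 ± 0.107 on the log2 scale (SE, edgeR adjusted p = 1.76e-189). The SE and p-values of this comparison draw on a spread estimated over many genes. They do not show how far Hes1 itself ranged between the bulge-gated sums, from 439 to 1145 CPM. Hey1 was higher by 3.99 ± 0.567 from 19 UMIs, Notch3 by 1.50 ± 0.353 and Notch1 by 1.26 ± 0.120 (adjusted p = 1.34e-11, 7.95e-05 and 9.8e-25). Dll1 was lower, with 4 UMIs in bulge-gated cells against 14142 in basal cells, a ratio of 19.1 with a counting interval of 7.45 to 70 (95%, exact Poisson on the bulge count). The fitted log2 difference was −4.82 ± 0.380 (adjusted p = 1.82e-35), and −3.01 with each cell gated alone. Jag2 was lower by −1.57 ± 0.393 (adjusted p = 0.000229), a call lost with each cell gated alone (−0.96) and in the control libraries alone (adjusted p = 0.0676), as in the latter was that of Notch3 (adjusted p = 0.0584). Here 4 members were called higher and 2 lower of 9, where 36.4% of 13193 genes were called, 15.3% higher and 21.1% lower. No Leiden cluster was named as bulge, and a stricter gate left too few cells for this comparison.

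**Figure D2:**
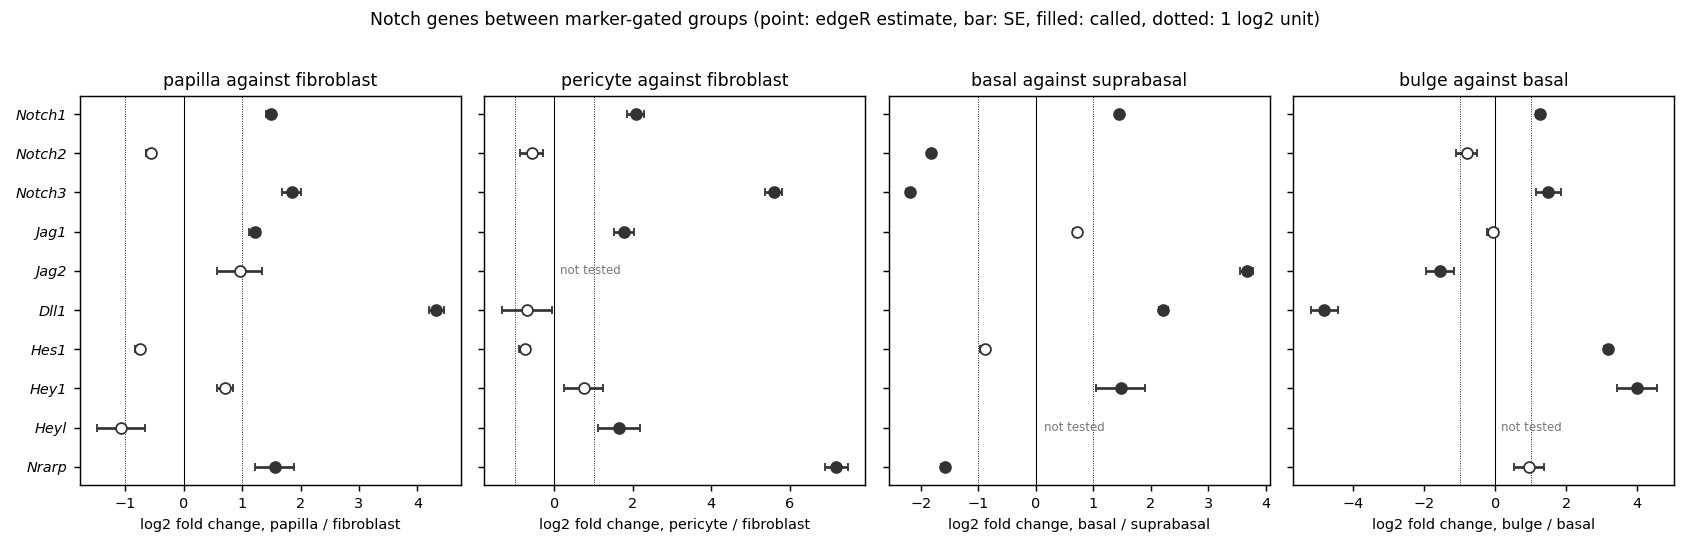
Log2 fold changes of the members (points, edgeR estimate, bars, SE) in the 4 comparisons between gated groups over 4 libraries, filled where called. Dll1 is 4.32 higher in papilla-gated than fibroblast-gated cells and 4.82 lower in bulge-gated than basal cells, and Nrarp and Notch3 lie at 7.19 and 5.59 in pericyte-gated against fibroblast-gated cells.

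Other genes of the pathway, a list of 48 that served as context, moved in both directions in these comparisons. Between papilla-gated and fibroblast-gated cells 6 of 36 tested were called higher and 6 lower, with a median log2 difference of −0.10 beside 0.01 for all genes. Higher in papilla-gated cells were the target Hey2 (7.22, 14.1, 13 and 13.6 CPM against 1.19, 1.84, 1.49 and 0.726 CPM, log2 difference 2.88), the ligand-like gene Dlk2 (2.52), the coactivators Maml3 (1.15) and Ep300 (1.08), Spen (1.09) and Fbxw7 (1.06). Lower were the gamma-secretase parts Ncstn (−1.41) and Aph1a (−1.07), the fucosyltransferase Pofut1 (−1.07), Numbl (−1.08), Dtx4 (−1.48) and Dlk1. Dlk1 had 1 UMI in papilla-gated and 157 in fibroblast-gated cells, a ratio of 177 with a counting interval of 31.7 to 6974 (95%, exact Poisson on the papilla count). Under 13 alternatives the calls of Pofut1 and Fbxw7 were lost in 3, those of Maml3, Aph1a and Spen in 2, and those of Numbl and Ep300 in 1.

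Between basal and suprabasal keratinocytes 8 of 37 tested were called higher in basal cells and 1 lower, with a median of 0.26 beside 0.03. The higher genes included the sugar transferases Lfng (2.49) and Mfng (3.13), the ligand-like Dlk2 (3.58), Neurl1b (2.74), Maml2 (1.94), Numbl (1.43) and Dtx4 (1.10). The lower gene was the protease Adam17 (−1.09), whose call was lost in 1 of 13 alternatives, and that of Dtx4 was lost in 3.
In bulge-gated against basal cells 10 of 37 were called higher and 6 lower, with a median of 0.11 beside −0.31. The higher ones were Hes6 (4.16), Neurl1a (3.56), Mib2 (2.26), Kat2b (2.23), Psen2 (2.07), Cir1 (1.77), Neurl1b (1.63), Dtx3 (1.62), Aph1b (1.41) and Pofut1 (1.01). Neurl3 (−2.62), Dtx2 (−1.58), Maml1 (−1.46) and Numb (−1.18) were lower. Mfng and Dlk2 had no UMI in bulge-gated cells and were at least 1.78-fold and 3.15-fold lower there, with 3 counts over the group as the floor. Of these 16 calls 5 held in all alternatives run. That of Pofut1 was lost in 7 of 11 alternatives, with a lowest log2 difference of 0.36, that of Psen2 in 3, those of Aph1b, Mfng, Neurl3 and Numb in 2, and those of Kat2b, Mib2, Neurl1a, Maml1 and Dlk2 in 1.
Between pericyte-gated and fibroblast-gated cells 2 of 34 were called higher, Hey2 (10.5, 4.68, 7.42 and 4.38 CPM, log2 difference 2.27) and Dtx3 (1.18), and 7 lower, with a median of −0.37 beside −0.19. Lower were Pofut1 (−3.25), Aph1a (−2.36), Ncstn (−1.53), Kat2b (−1.41), Adam17 (−1.38) and Dtx2 (−1.31), and Hes6, with no UMI in pericyte-gated cells, was at least 1.84-fold lower. The Hey2 value rested on 6 pericyte UMIs, and the call was lost without the filter on low counts (adjusted p = 0.12), in the control libraries alone (adjusted p = 0.132), and without control replicate 1 (adjusted p = 0.113) or either mutant replicate (adjusted p = 0.0538 and 0.0529). Of the 9 calls 2 held in all alternatives run, and besides Hey2 those lost were Dtx2 in 5 of 13, Kat2b in 4, Dtx3 in 3, Ncstn in 2 and Adam17 in 1, with Hes6 lost in 4 of 11.

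The comparison of mutant with control libraries asks how the members differ by genotype inside each gated group. In papilla-gated cells Heyl was called higher in mutant libraries, and in T, NK or innate lymphoid cells Jag2 was called lower. Over the 13 groups, 83 of 130 pairs of member and group passed the filter on low counts, so the other 47 are without a test. Of the 83 pairs 2 were called, or 2.41%, where 1.85% of all 106420 pairs of gene and group were called. At the adjusted p alone 17 pairs passed, 9 higher and 8 lower in mutant libraries, or 20.5% beside 11% of all pairs. In papilla-gated cells 5.35% of 13115 genes were called, 3.68% higher. At the adjusted p alone 24.9% of genes passed there, and 6 of 10 members.

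Heyl stood at 1.03 and 1.79 CPM in control and 4.22 and 4.26 CPM in mutant papilla-gated cells, and the groups did not overlap. The log2 difference was 1.62 ± 0.352 (SE, edgeR adjusted p = 0.00391) from 93 UMIs. Without the clusters held by 1 genotype the log2 difference was 1.97 (adjusted p = 0.000536). The call was lost with pydeseq2 (1.63, adjusted p = 0.0522) and where each cell was gated on its own markers alone (0.84, adjusted p = 0.105). The fibroblast marker list, whose cells also express Heyl, summed to 748, 906, 1860 and 1710 CPM in papilla-gated cells, with 8 of 8 markers higher in both mutant libraries and none at 0. The pericyte list summed to 26.3, 29.5, 41.2 and 39.9 CPM, with 3 of 8 markers higher in both mutant libraries, and the dermal sheath list to 37.7, 38.7, 128 and 114 CPM, with 6 of 6 higher. The part of these cell types in the Heyl value was not tested.

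Dll1, the ligand that sets papilla-gated cells apart, was lower in mutant libraries by −0.51 ± 0.065 on the log2 scale (edgeR adjusted p = 5.95e-05), under the 2-fold minimum. Cluster 1, which all 4 libraries shared, held 337, 327, 296 and 267 CPM of Dll1 in its papilla-gated cells. The papilla-gated cells of cluster 15 held 74.0 and 84.0 CPM in the 2 mutant libraries. Without clusters 15 and 23 the log2 difference of Dll1 was −0.16 with an adjusted p of 0.11. The Notch genes were not used to form the clusters.

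Jag1 went the other way. It stood at 55.7, 54.9, 90.6 and 77.1 CPM in papilla-gated cells, without overlap, a log2 difference of 0.64 ± 0.0922 (edgeR adjusted p = 0.000174). Cluster 1 held 55.7, 53.5, 75.8 and 64.5 CPM and cluster 15 held 131 and 112 CPM, and without the clusters of 1 genotype the difference was 0.43 (adjusted p = 0.00381). Nrarp, at 6.19 and 7.16 against 3.11 and 4.16 CPM, differed by −0.83 ± 0.249 (adjusted p = 0.0247) and by −0.95 without those clusters (adjusted p = 0.0167). The adjusted p of Nrarp stayed under 0.05 in only 10 of 14 alternatives. Those that lost it included the fits without control replicate 2 and without mutant replicate 1. The difference passed 2-fold under a stricter gate (−1.02) and without mutant replicate 2 (−1.06).
Notch1 (0.23 ± 0.0700) and Notch2 (0.38 ± 0.110) were higher in mutant papilla-gated cells at an adjusted p of 0.0273 and 0.0204, which stayed under 0.05 in 7 and 8 of 14 alternatives. The log2 differences of Hes1 (0.09 ± 0.101), Notch3 (−0.12 ± 0.129), Hey1 (0.37 ± 0.153) and Jag2 (0.61 ± 0.370) had adjusted p-values of 0.551, 0.533, 0.101 and 0.261.

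**Figure D3:**
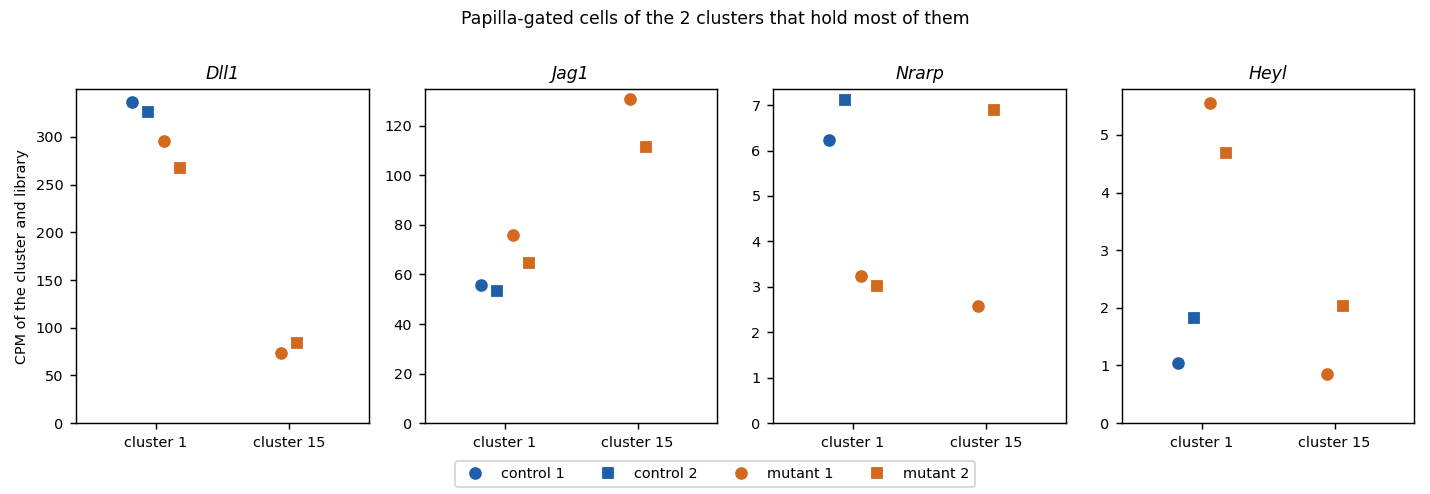
CPM (vertical axis) of Dll1, Jag1, Nrarp and Heyl in papilla-gated cells of cluster 1, in all 4 libraries, and of cluster 15, in the 2 mutant libraries, with 1 point per library. Dll1 lies at 267 to 337 CPM in cluster 1 and at 74.0 and 84.0 CPM in cluster 15, and Jag1 is higher in cluster 15.

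In fibroblast-gated cells no member was called by edgeR, where 1.3% of 12104 genes were, and 2 of 9 had an unadjusted p under 0.05. Both passed at the adjusted p alone, as did 7.75% of genes. These were Jag1, at 19.7, 20.2, 26.5 and 26.2 CPM (0.46 ± 0.121, adjusted p = 0.0359), and Notch2 (0.35 ± 0.0968, adjusted p = 0.0468). Each kept an adjusted p under 0.05 in only 3 of 14 alternatives. Without the clusters of 1 genotype the differences were 0.13 (adjusted p = 0.653) for Jag1 and 0.17 (adjusted p = 0.415) for Notch2, and under a stricter gate 0.17 and 0.07 (adjusted p = 0.69 and 0.847). The fibroblast-gated cells of cluster 23, from mutant libraries alone, held 47.5 and 68.4 CPM of Jag1 and 90.3 and 79.9 CPM of Notch2. Those of cluster 6, which all 4 libraries shared, held 23.6, 19.9, 30.2 and 24.5 CPM of Jag1, without overlap between the genotypes. Those of cluster 16, also shared by all 4 libraries, held 9.70, 13.1, 15.5 and 11.7 CPM of Jag1, with overlap. Jag1 was not tested by genotype within single clusters. Heyl differed by −0.22 ± 0.348 in fibroblast-gated cells as a whole (adjusted p = 0.778). Whether the genotype difference itself differed between papilla-gated and fibroblast-gated cells was tested as an interaction, in which 3.91% of 13560 genes were called, 2.73% with a more positive difference in papilla-gated cells. Heyl was called, with a difference of 1.84 ± 0.535 on the log2 scale (adjusted p = 0.0301), and the other 9 members were not. The interaction of Dll1 was −0.47 ± 0.175 (adjusted p = 0.0902). The Heyl interaction was lost under a stricter gate (1.31, adjusted p = 0.171), with each cell gated alone (0.60, adjusted p = 0.608), and without control replicate 1 (0.71, adjusted p = 0.587), mutant replicate 1 (1.72, adjusted p = 0.155) or mutant replicate 2 (1.95, adjusted p = 0.117).

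In T, NK or innate lymphoid cells, Jag2 stood at 4.03 and 4.68 CPM in control and 1.75 and 1.23 CPM in mutant libraries, without overlap, from 63 UMIs in all. The log2 difference was −1.61 ± 0.402 (edgeR adjusted p = 0.00535), and 3.61% of 11011 genes were called in this group, 1.66% lower. At the adjusted p alone 3 of 9 members passed, where 23.5% of genes did. The call was lost with Leiden clusters (−0.59, adjusted p = 0.106), without control replicate 2 (−1.50, adjusted p = 0.0673) and without mutant replicate 2 (−1.38, adjusted p = 0.0606). Basal keratinocytes held Jag2 at over 15 CPM, and the basal keratinocyte list summed to 579, 608, 481 and 564 CPM in these immune cells, with 2 of 6 markers lower in both mutant libraries and none at 0. The list of their own markers summed to 4320, 4320, 3610 and 3600 CPM, with 5 of 5 lower in both mutant libraries, and the fibroblast list to 184, 184, 350 and 378 CPM, with 8 of 8 higher. Of the clusters named from the T cell list, cluster 3 had 594, 620, 358 and 385 cells and cluster 5 had 323, 307, 551 and 551. Cluster 30, of 220 cells with a median of 25906.5 UMIs, was also named from it and entered the Leiden alternative. A share of 0.868 of its cells was gated as basal keratinocytes, so that alternative mixes keratinocytes into the group. The part of these differences, and of cluster 30, in the values of Jag2, Nrarp and Hes1 was not tested.
Nrarp, at 26.8, 24.3, 17.3 and 17.8 CPM, was lower in mutant immune cells by −0.61 ± 0.141 (edgeR adjusted p = 0.0031), and missed an adjusted p of 0.05 with Leiden clusters (−0.38, adjusted p = 0.0665) and pydeseq2 (adjusted p = 0.0771). Hes1, at 11.6, 6.07, 13.8 and 16 CPM, differed by 0.70 ± 0.230 (adjusted p = 0.0318), and only 8 of 14 alternatives kept an adjusted p under 0.05. The log2 difference of Hes1 was 0.0023 with called doublets kept (adjusted p = 0.996), 0.21 with Leiden clusters (adjusted p = 0.337), 0.30 without control replicate 2 (adjusted p = 0.419) and 0.59 without mutant replicate 2 (adjusted p = 0.0857), and the adjusted p was 0.0758 without the filter and 0.232 with pydeseq2. Hes1 passed 2-fold without control replicate 1 (1.22) and with each cell gated alone (1.00).

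Keratinocytes differed by genotype in their ligands by small amounts. In basal keratinocytes, where 2.16% of 15383 genes were called, no member was called by edgeR, although 6 of 9 had an unadjusted p under 0.05. At the adjusted p alone 4 of 9 passed, where 23.6% of genes did. Dll1 stood at 48.8, 50.2, 67.3 and 66.8 CPM, a log2 difference of 0.42 ± 0.0336 (adjusted p = 6.14e-07), the opposite sign to that in papilla-gated cells. The log2 difference of Dll1 lay between 0.39 and 0.44 under 14 alternatives, all with an adjusted p under 0.05, and was 0.44 without clusters 15, 23 and 32. In basal-gated cells the papilla list, whose cells are rich in Dll1, summed to 8.8, 7.29, 15.7 and 17 CPM, with 6 of 8 markers higher in both mutant libraries. The fibroblast list summed to 221, 233, 322 and 310 CPM, with 7 of 8 higher, and the basal list to 14700, 14700, 13600 and 13700 CPM, with 4 of 6 lower and 2 higher. Their part in the Dll1 value was not tested. Jag1 was lower (−0.29 ± 0.0451, adjusted p = 0.000278), as was Jag2 (−0.17 ± 0.0496, adjusted p = 0.0233), and Hes1 was higher (0.27 ± 0.0466, adjusted p = 0.000631). These passed at the adjusted p in 14, 9 and 12 of 14 alternatives. In suprabasal keratinocytes, with 1.49% of 11880 genes called and 7.21% past the adjusted p alone, 1 of 8 members passed the latter. Jag1 stood at 38.7, 36.4, 26.7 and 29.8 CPM (−0.43 ± 0.0749, adjusted p = 0.00559). The difference of these effects between groups was not tested.

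In lymphatic endothelial cells (0.637% of 6596 genes called, 1.76% past the adjusted p alone) Hes1 stood at 956, 867, 697 and 660.2 CPM, without overlap, a log2 difference of −0.40 ± 0.0890 (edgeR adjusted p = 0.0291), under 0.05 in 10 of 14 alternatives. No member was called, or passed at the adjusted p alone, in pericyte-gated, blood endothelial, Schwann, melanocyte, Langerhans, mast or upper follicle cells. The numbers tested by edgeR there were 5, 8, 4, 4, 1, 3 and 7, and the numbers with an unadjusted p under 0.05 were 1, 0, 0, 1, 0, 0 and 2. The shares of all genes called were 0.331%, 0.267%, 0.622%, 0.368%, 0.0431%, 2.13% and 0.342%, and at the adjusted p alone 0.397%, 0.361%, 1.84%, 0.391%, 0.0431%, 2.24% and 0.538%. In pericyte-gated cells the SE of the log2 difference was 0.244 for Notch3 and 0.260 for Nrarp.

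**Figure D4:**
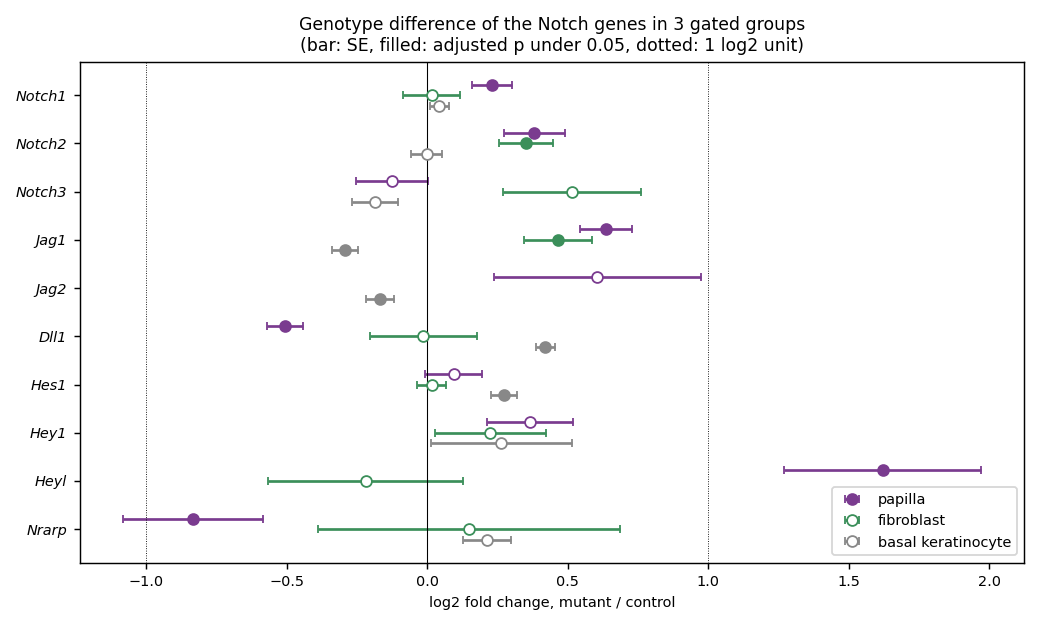
Log2 fold change of mutant over control libraries (points, edgeR estimate, bars, SE, n = 2 libraries a genotype) for the members in papilla-gated, fibroblast-gated and basal keratinocyte cells, filled where the adjusted p is under 0.05. Heyl in papilla-gated cells (1.62) is the 1 point past 1 log2 unit, and Dll1 lies at −0.51 in papilla-gated and 0.42 in basal cells.

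Among the other genes of the pathway, 3 of 333 tested pairs of gene and group were called by genotype, or 0.901%. Dtx1, at 2.06, 1.07, 4 and 4.16 CPM in papilla-gated cells, differed by 1.40 ± 0.356 (edgeR adjusted p = 0.0106). Without the clusters of 1 genotype it differed by 0.58 (adjusted p = 0.375), and the adjusted p was 0.0957 without control replicate 2, 0.0616 without the filter and 0.111 with pydeseq2. In T, NK or innate lymphoid cells the ubiquitin ligase gene Mib2, at 25.1, 24.6, 12.4 and 10.9 CPM, was called lower and fell by 1.16 on the log2 scale (adjusted p = 8.21e-06), and the coactivator gene Maml2, at 5.32, 4.86, 14.0 and 11.7 CPM, rose by 1.26 (adjusted p = 0.000233). The median difference of the pathway genes in papilla-gated cells was −0.07 over 37 genes, that of the members 0.30 over 10 and that of all genes −0.01.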

How the data were processed

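Single-cell RNA sequencing had been run on 4 unsorted libraries (2 control, 2 mutant) and 1 sorted library. The files the authors deposited are matrices of unnormalized UMI counts (genes by barcodes). Per the file headers, unsorted libraries came from Cell Ranger 3.1.0; Cell Ranger 2.1.1, Seurat 3.2.2, Scanpy 1.6.0, mm10 and GRCm38 are also named in the submitters' processing notes. Unsorted cells with 500 to 8000 genes and at most 10% mitochondrial UMIs were kept, and barcodes with a scrublet score above 0.25 (scanpy 1.11.5) were removed (145 to 176 per library). Marker scores from 20 lists were averaged over 30 neighbours; the best list had to lead by 0.2 with at least 3, and no fewer than 0.5, of its markers detected. Neighbours came from 40 components of 2000 variable genes without the Notch and pathway genes. These thresholds were set with clusters and markers in view. The members, lists and tests were chosen with earlier results of these data known.

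UMI counts were summed per library and group and tested with edgeR 4.0.16 (TMM, filterByExpr, quasi-likelihood test, Benjamini-Hochberg over all genes tested); scripts were tested on simulated data. Named genes were the 10 members, pathway genes called in a reported fit, and for each member the 3 genes most alike among those with at least 20 CPM in 1 group. Some genes named by this rule are not reported here. UMI sums of replicates of a genotype differed beyond counting noise (chi-square per degree of freedom 1.37 to 5.26). This value does not separate differences between preparations from differences between the cells drawn. Alternatives were pydeseq2 0.5.4 (genes with at least 10 counts), no filter, a stricter gate (lead of 0.3), Leiden clusters (leidenalg 0.10.2, resolution 1.0), doublets kept, each replicate left out, a replicate block, control libraries only and RLE scaling. Added after seeing the data were gates on each cell alone, leaving out clusters with over 95% or, by genotype, over 90% of cells from 1 genotype, and leaving out shared barcodes. Intervals and floors (3 counts) cover counting error only. Dermal sheath and macrophage gates had too few cells in a library and were not tested.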

Additional observations from a re-analysis of the deposited data

Results flagged for a closer look

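The genotype difference of Heyl differed between papilla-gated and fibroblast-gated cells by 1.84 on the log2 scale, in a test of the interaction itself (edgeR adjusted p = 0.0301). The estimate ran from 0.60 to 2.80 under the alternatives. The call was lost under a stricter gate, with each cell gated alone, and without control replicate 1, mutant replicate 1 or mutant replicate 2.

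The sorted library (GFP-positive cells of Lepr-Cre;mTmG females at postnatal day 50, 432 cells, 1118686 UMIs) entered no comparison, and each member was found there above the 3 counts that a count of 0 allows.
The receptors Notch1, Notch2 and Notch3 had 94, 35 and 9 UMIs. The ligands Jag1, Jag2 and Dll1 had 42, 14 and 25 UMIs. The targets Hes1, Hey1, Heyl and Nrarp had 303, 11, 14 and 10 UMIs.
There is 1 such library, prepared with another version of the chemistry, so no error and no comparison with the unsorted libraries are given.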

How the results depend on the processing

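Of 635 values of the members under the alternatives, 609 kept their direction and side of the call threshold, 18 lost a call, 8 gained one and none changed sign. For the other pathway genes these were 534, 71 and 0 of 606, and 1 changed sign: Dtx2 in pericyte-gated against fibroblast-gated cells, at 0.14 with Leiden clusters (the cause was not tested). A difference that passed at the adjusted p alone counts as kept here even where that adjusted p was lost. Such losses were frequent: Jag1 and Notch2 in fibroblast-gated cells each stayed under 0.05 in only 3 of 14 alternatives. Notch1 in papilla-gated cells did so in 7 of 14, and Hes1 in T, NK or innate lymphoid cells in 8 of 14. The 2 member calls by genotype became 0 with pydeseq2 (19 of 107 member and group pairs had an unadjusted p under 0.05, beside 28 of 83 by edgeR) and lay between 1 (without control replicate 2) and 4 (without control replicate 1) with each replicate left out. The 1 member call of the interaction became 0 under a stricter gate and 0 with each cell gated alone, and lay between 0 and 1 with each replicate left out; edgeR gave 4 and 3 members with an unadjusted p under 0.05 there. With a replicate block the genotype comparison gave 2 calls. The correlation of deviations between same-numbered libraries was −0.09 to 0.04, and the labels do not say whether these libraries share more than a number. The bulge comparison had too few cells under the stricter gate or Leiden clusters and was not run there. Sums of few UMIs limit Heyl, Jag2, Hey1 and Nrarp outside their main groups.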
